A study of Bos taurus with 31 samples.

Results

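The copper- and zinc-dependent superoxide dismutase SOD1 (ENSBTAG00000018854), the manganese-dependent superoxide dismutase SOD2 (ENSBTAG00000006523) and the heme iron enzyme catalase, CAT (ENSBTAG00000020980), were followed in bovine fetal liver. They were chosen by identifier because each needs a trace mineral for its activity. The rule uses no measured value, although it was written when earlier results of these data were known. All 3 were found in the table of 27607 genes, and all 3 were among the 14228 genes with enough counts to be tested. Neither the count table nor the reference gene table supplied pairs these identifiers with symbols, so the symbols rest on the choice of genes itself.

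Liver RNA came from 31 female fetuses of separate Angus-cross heifers, all sired by a single bull, on day 83 of gestation. The heifers followed a factorial design of a vitamin and mineral premix and of the rate of body weight gain. VTM heifers were given the premix in 0.45 kg per day of ground corn, begun 71 to 148 days before artificial insemination, and NoVTM heifers were not. The corn carrier is listed for VTM heifers only, so the premix and its carrier cannot be told apart in VTM against NoVTM. From insemination, MG heifers also ate a starch-based supplement of protein and energy, meant to give a moderate gain (target 0.79 kg per day). LG heifers had the basal ration alone, with a target of 0.28 kg per day. All groups shared that ration, made of hay, silage, distillers grains and corn, so NoVTM is a diet without the added premix and not a diet without minerals. There were 7 fetuses in VTM_MG, 8 in VTM_LG, 8 in NoVTM_MG and 8 in NoVTM_LG. Below, supplementation means VTM against NoVTM, and gain means MG against LG.

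Superoxide is a by-product of respiration and of other oxygen-using reactions. Superoxide dismutases turn it into hydrogen peroxide and oxygen, SOD1 mainly in the cytosol and SOD2 in the mitochondrial matrix. Catalase, held mainly in peroxisomes, splits hydrogen peroxide into water and oxygen, and the liver is among the tissues richest in it. The metals act in the finished proteins, which were not measured here. The values below are transcript counts.

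The libraries held 13062894 to 18458776 counts. The least covered of the genes, SOD2, still had 593 to 1039 counts per library. SOD1 had 4258 to 7015 counts and CAT 8848 to 12297. Levels are given in the usual CPM unit, on library sizes adjusted by the trimmed mean of M-values (TMM). VTM_LG replicates 4 and 7 lay apart from the rest on the first principal component of all tested genes, at 63.0 and 37.9, while the other 29 libraries lay between -20.2 and 6.69. Results that rest on these libraries are therefore also given without them. The liver label was not checked against cell type markers, because no marker could be tied to an identifier. In such bulk RNA, fewer cells of a type and less RNA per cell cannot be told apart.

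None of the 3 transcripts passed the threshold of 0.05 for supplementation in the edgeR quasi-likelihood test, adjusted over all 14228 genes by the Benjamini-Hochberg method. The mean in VTM differed from that in NoVTM by -0.696% for SOD1, -5.89% for SOD2 and -0.396% for CAT. Each difference is smaller than the spread between fetuses, whose pooled SD was 9.85%, 12.4% and 6.12% of the NoVTM mean for the same genes. The premix contrast called 0 of all genes (0%), and for 412 genes (2.9%) the unadjusted p was under 0.05, with none of the 3 among them. DESeq2 called 3 genes and limma voom 2 in the same contrast, again with none of the 3 among them. Here and below, limma voom was run with an estimated quality weight for each library, so libraries do not count equally in it.

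SOD1 stood between 296 and 451 CPM in 15 VTM fetuses, with a median of 338 CPM, against 310 to 392 CPM with a median of 332.6 CPM in 16 NoVTM fetuses. Its mean was 344 ± 39.7 CPM in VTM (SD, n = 15) and 347 ± 28.1 CPM in NoVTM (SD, n = 16). The groups overlapped nearly throughout, with 1 VTM fetus above and 3 below the whole NoVTM range. The fitted ratio of VTM to NoVTM was 0.991, with a 95% interval of 0.923 to 1.06 (edgeR log2 fold change -0.01, SE 0.050, adjusted p = 0.9996).

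SOD2 ranged from 40.9 to 63.3 CPM in VTM, with a median of 49.7 CPM, against 43.7 to 64.6 CPM with a median of 55.0 CPM in NoVTM. It averaged 50.2 ± 6.30 CPM in VTM (SD, n = 15) and 53.3 ± 6.84 CPM in NoVTM (SD, n = 16). In VTM, 12 of 15 fetuses lay below the NoVTM median, yet 13 of 15 lay inside the NoVTM range. The ratio of VTM to NoVTM was 0.944, with a 95% interval of 0.868 to 1.03 (edgeR log2 fold change -0.08, SE 0.0601, unadjusted p = 0.177, adjusted p = 0.9996). Of all tested genes, 68.6% had a smaller absolute log2 fold change in this contrast. Without VTM_LG replicates 4 and 7, the log2 fold change of SOD2 was -0.060 (unadjusted p = 0.336 in edgeR).

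CAT lay between 615 and 773 CPM in VTM, with a median of 722 CPM, against 644 to 773 CPM with a median of 706 CPM in NoVTM. It averaged 706 ± 49.2 CPM in VTM (SD, n = 15) and 709 ± 37.3 CPM in NoVTM (SD, n = 16). Its ratio of VTM to NoVTM, 0.996, had the narrowest 95% interval of the 3 genes, 0.942 to 1.05 (edgeR log2 fold change -0.01 with SE 0.0392, adjusted p = 0.9996). The direction of the SOD1 and CAT estimates turned under other settings, among them scaling by total counts alone, whereas SOD2 was lower in VTM under all 41 alternatives. Here and below, 31 of the alternatives leave out a single library each, and all reuse the same fetuses. Such tallies describe stability and are not separate evidence.

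**Figure D1:**
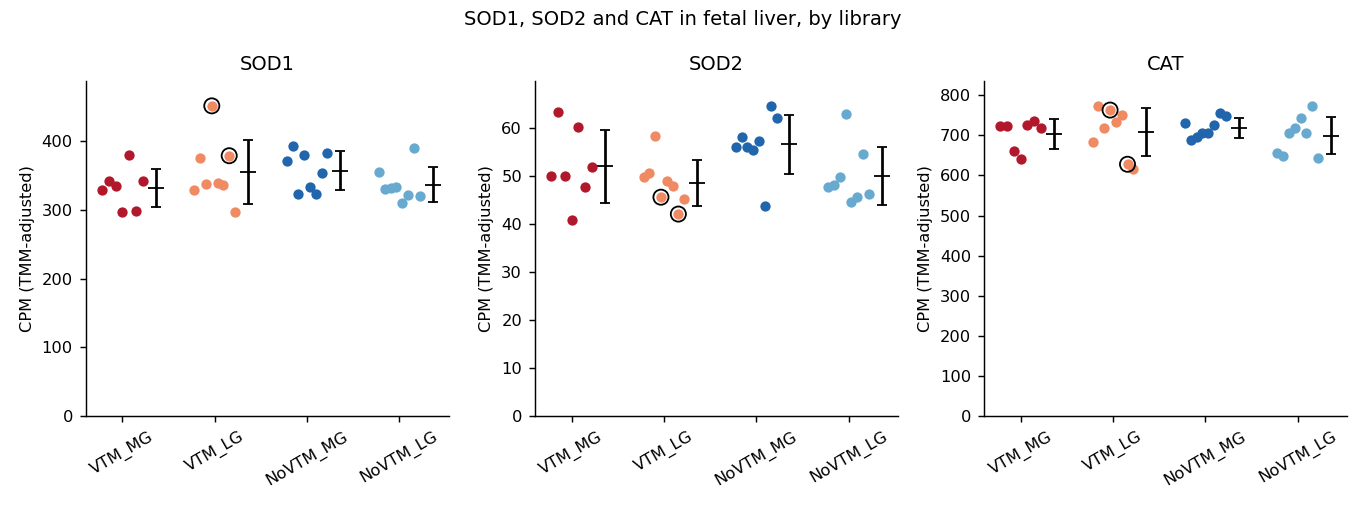
TMM-adjusted CPM (y axis, from 0) of each enzyme in every library of the 4 groups (x axis), with the group mean and SD as bars to the right of the points and VTM_LG replicates 4 and 7 ringed. The groups overlap for each gene. SOD1 is highest in VTM_LG replicate 4, at 451 CPM, and all but 1 of the NoVTM_MG libraries lie at or above 55.5 CPM for SOD2.

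The question of whether the premix acted at either rate of gain was addressed by the contrasts within MG and within LG. With moderate gain, the mean of SOD1 was 332 ± 28.2 CPM in the 7 VTM_MG fetuses and 357 ± 28.1 CPM in the 8 NoVTM_MG fetuses (SD). With low gain it was 355 ± 46.7 CPM in the 8 VTM_LG fetuses and 336 ± 25.5 CPM in the 8 NoVTM_LG fetuses (SD). The fitted log2 fold changes pointed in opposite directions, -0.11 for VTM_MG against NoVTM_MG (SE 0.0720, adjusted p = 0.955 in edgeR) and 0.08 for VTM_LG against NoVTM_LG (SE 0.0695, adjusted p = 0.734 in edgeR). The test of that difference, the interaction, was -0.18 on the log2 scale (SE 0.100, unadjusted p = 0.0742, adjusted p = 0.510 in edgeR) and did not pass.

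The higher mean of SOD1 in VTM_LG came with the libraries that stood apart. VTM_LG replicate 4 held 451 CPM, the highest of all 31 libraries, and VTM_LG replicate 7 held 379 CPM. Without both, VTM_LG averaged 335 ± 25.1 CPM (SD, n = 6), the log2 fold change of VTM_LG against NoVTM_LG was -0.0043 and the interaction was -0.10 (unadjusted p = 0.255 in edgeR). When the first principal component was added to the model, a setting chosen after the data were seen, the interaction was -0.03. The component was built from the same libraries with SOD1 included, and its r with SOD1 was 0.75 over all 31. Adding it can therefore shrink SOD1 differences by construction, and this value is no separate check. Other settings left the interaction larger: it was -0.22 without VTM_MG replicate 5 (unadjusted p = 0.0359), and its unadjusted p was 0.0453 in limma voom and 0.0463 with total counts only. In all, 5 of 40 alternatives gave an unadjusted p under 0.05, and the lowest adjusted p was 0.303. What sets these libraries apart was not tested.

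For SOD2 the mean was 52.0 ± 7.60 CPM in the 7 VTM_MG fetuses and 56.7 ± 6.15 CPM in the 8 NoVTM_MG fetuses (SD). The fitted log2 fold change there was -0.12 (SE 0.0863), with an edgeR adjusted p of 0.955. It was -0.18 without VTM_MG replicate 2 and -0.07 without VTM_MG replicate 4. Over its 40 alternatives the lowest unadjusted p was 0.0487, without NoVTM_MG replicate 6, and the lowest adjusted p was 0.625. In the low-gain groups the mean was 48.6 ± 4.85 CPM in VTM_LG and 49.99 ± 6.08 CPM in NoVTM_LG, with SD and n = 8 each (log2 fold change -0.04 with SE 0.0836, adjusted p = 0.896 in edgeR). The estimate for SOD2 was thus negative at both rates of gain, although at low gain it was 0.0038 without VTM_LG replicates 4 and 7. The interaction was -0.08 (SE 0.120, adjusted p = 0.818 in edgeR). It moved to -0.03 without VTM_MG replicate 4, to -0.13 without VTM_MG replicate 2 and to -0.16 in limma voom.

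The mean of CAT was 704 ± 37.0 CPM in the 7 VTM_MG fetuses and 719 ± 24.4 CPM in the 8 NoVTM_MG fetuses (SD). With low gain it was 708 ± 60.4 CPM in VTM_LG and 699 ± 46.5 CPM in NoVTM_LG (SD, n = 8 each). The log2 fold changes for the premix were -0.03 (SE 0.0564) with moderate gain and 0.02 (SE 0.0545) with low gain, and the interaction was -0.05 (SE 0.0785), with adjusted p-values of 0.969, 0.934 and 0.835 in edgeR. No gene of the table was called (0 genes, 0%) in VTM_MG against NoVTM_MG, in VTM_LG against NoVTM_LG or in the interaction, and the unadjusted p was under 0.05 for 4.57%, 8.25% and 10.7% of genes. None of the 3 enzymes was among those. DESeq2 and limma voom each called 0 genes in these 3 contrasts.

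**Figure D2:**
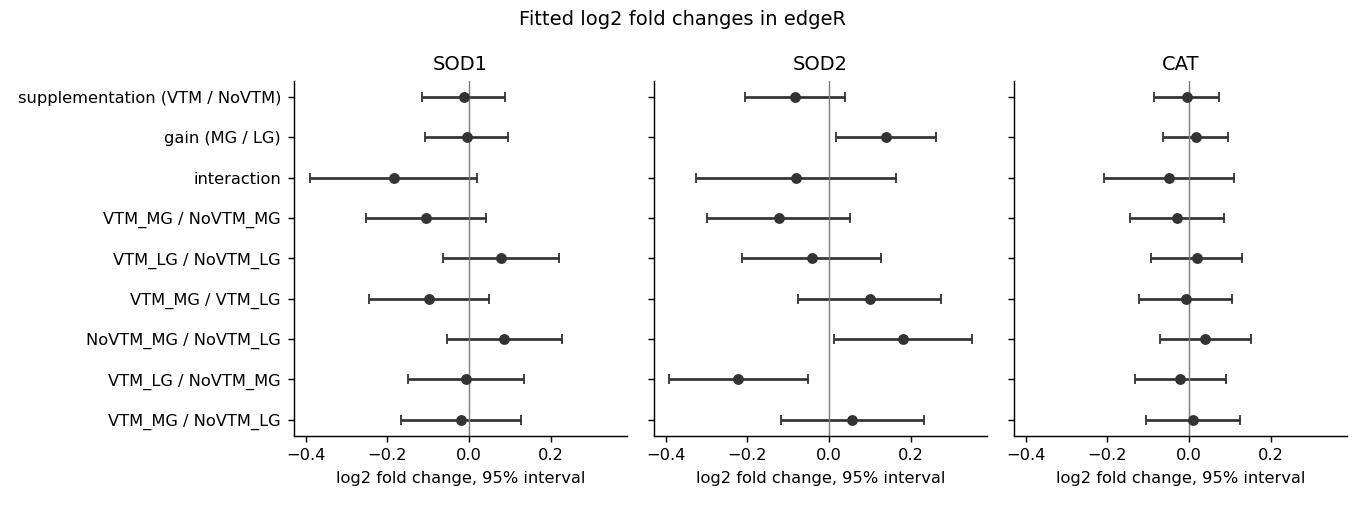
Fitted log2 fold changes (points, x axis) with 95% intervals (bars) from edgeR for each enzyme in 9 contrasts (y axis), with the group named first over the group named after it. The SOD2 intervals for gain, for NoVTM_MG against NoVTM_LG and for VTM_LG against NoVTM_MG lie to one side of 0, and the intervals of CAT are the narrowest.

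SOD2 was higher on average in MG than in LG, but did not pass for gain. In 15 MG fetuses SOD2 ranged from 40.9 to 64.6 CPM with a median of 56.0 CPM, against 42.1 to 63.0 CPM with a median of 48.0 CPM in 16 LG fetuses. The means were 54.5 ± 7.03 CPM in MG (SD, n = 15) and 49.3 ± 5.36 CPM in LG (SD, n = 16), a difference of 10.6% of the LG mean. Of the MG fetuses 12 of 15 lay above the LG median, while 12 of 15 also lay inside the LG range. The fitted ratio of MG to LG was 1.10, with a 95% interval of 1.01 to 1.20 (edgeR log2 fold change 0.14, SE 0.0600). Its unadjusted p was 0.0262 and its adjusted p 0.624, with the gene in place 578 of 14228 when ordered by p.

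An unadjusted p of that size is common in this contrast. Gain called 3 genes (0.0211%), with none of the 3 enzymes among them, and for 1113 genes (7.82%) the unadjusted p was under 0.05, SOD2 being the only enzyme of the 3 there. Over 41 alternatives the log2 fold change of SOD2 for gain stayed positive, its unadjusted p was under 0.05 in 38, and its adjusted p lay between 0.435 and 0.961. Without VTM_LG replicates 4 and 7, the log2 fold change was 0.12 (unadjusted p = 0.0667, adjusted p = 0.961 in edgeR). It was 0.11 without VTM_MG replicate 2 and 0.17 without NoVTM_LG replicate 4, the lowest and highest values when single libraries were left out.

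The estimate for SOD2 was larger without the premix. NoVTM_MG fetuses had 43.7 to 64.6 CPM with a median of 56.6 CPM, against 44.7 to 63.0 CPM with a median of 48.0 CPM in NoVTM_LG. In NoVTM_MG 7 of 8 fetuses stood above the NoVTM_LG median, and in NoVTM_LG 7 of 8 stood below the NoVTM_MG median. The log2 fold change was 0.18 (SE 0.0834, unadjusted p = 0.0376, adjusted p = 0.9997 in edgeR), in a contrast with 0 calls in all (0%) and 4.59% of genes at an unadjusted p under 0.05. DESeq2 called 9 genes there and limma voom 2, with none of the 3 enzymes among them.

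With the premix, SOD2 ranged from 40.9 to 63.3 CPM in VTM_MG, against 42.1 to 58.4 CPM in VTM_LG. The log2 fold change was 0.10 (SE 0.0864, adjusted p = 0.601 in edgeR), with 0.05 without VTM_MG replicate 2 and 0.15 without VTM_MG replicate 4. It was 0.053 without VTM_LG replicates 4 and 7. The gain effect on SOD2 with and without the premix was not shown to differ, since the interaction given above is the test of that difference. In VTM_MG against VTM_LG, edgeR called 0 genes (0%) and left 14.8% of genes at an unadjusted p under 0.05, with none of the 3 enzymes among them. DESeq2 called 1 gene and limma voom 0.

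For SOD1 and CAT the ratios of MG to LG were near 1. SOD1 averaged 345 ± 30.1 CPM in MG (SD, n = 15) and 346 ± 37.6 CPM in LG (SD, n = 16), a ratio of 0.996 with a 95% interval of 0.928 to 1.07 (adjusted p = 0.979 in edgeR). CAT averaged 712 ± 30.7 CPM in MG and 704 ± 52.3 CPM in LG, a ratio of 1.01 with a 95% interval of 0.956 to 1.07 (adjusted p = 0.929 in edgeR). The sign of the SOD1 estimate for gain was not stable: it was 0.04 without VTM_LG replicates 4 and 7 and 0.06 when the first principal component was added to the model.

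Of all 9 contrasts, the smallest p for any of the 3 enzymes was that of SOD2 in VTM_LG against NoVTM_MG, where both factors differ. SOD2 ranged from 42.1 to 58.4 CPM in VTM_LG, against 43.7 to 64.6 CPM in NoVTM_MG, and 7 of 8 VTM_LG fetuses lay below the NoVTM_MG median. The ratio was 0.857, with a 95% interval of 0.762 to 0.964 (edgeR log2 fold change -0.22, SE 0.0834, unadjusted p = 0.0117, adjusted p = 0.532). It held place 302 of 14228 by p, in a contrast with 0 calls (0%) and 1272 genes (8.94%) at an unadjusted p under 0.05. DESeq2 called 6 genes there and limma voom 0, with none of the 3 enzymes among them. Without VTM_LG replicates 4 and 7 the log2 fold change of SOD2 was -0.18 (unadjusted p = 0.0554, adjusted p = 0.997 in edgeR). The unadjusted p was under 0.05 in 39 of 40 alternatives, this one being the exception.

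In VTM_MG against NoVTM_LG, which share neither the premix nor the rate of gain, the log2 fold changes were -0.02 for SOD1 (SE 0.0720), 0.06 for SOD2 (SE 0.0864) and 0.01 for CAT (SE 0.0564), and the edgeR adjusted p was 0.9996 for all 3. The value of SOD2 was 0.0041 without VTM_MG replicate 2 and was 0.11 without NoVTM_LG replicate 4. That contrast had 0 calls (0%) and 2.85% of genes at an unadjusted p under 0.05, with none of the 3 among them. DESeq2 called 1 gene and limma voom 0. By mean, the order of the groups for SOD2 was NoVTM_MG, VTM_MG, NoVTM_LG and VTM_LG, and no neighbours in that order differed beyond their spread. For SOD1 the order was NoVTM_MG, VTM_LG, NoVTM_LG and VTM_MG, and for CAT it was NoVTM_MG, VTM_LG, VTM_MG and NoVTM_LG, again with no neighbours apart beyond their spread. Without VTM_LG replicates 4 and 7, the mean of VTM_LG was 50.1 CPM for SOD2, above NoVTM_LG, and 335 CPM for SOD1, below NoVTM_LG, so VTM_LG and NoVTM_LG changed places for both genes. NoVTM_MG had the highest mean of the 4 groups for each of the 3 genes.

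**Figure D3:**
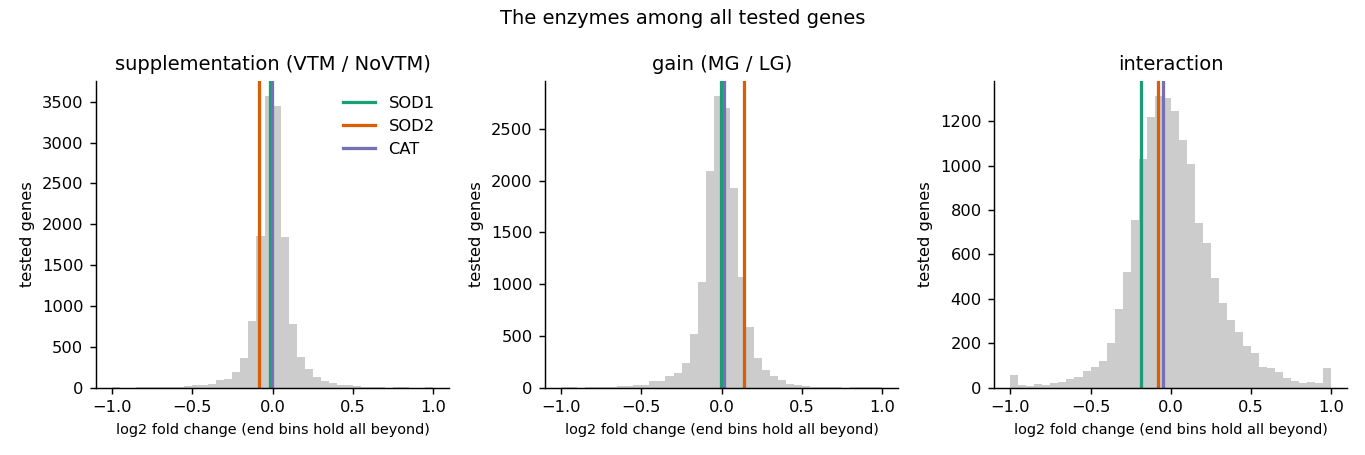
Number of tested genes (y axis) by log2 fold change (x axis) for supplementation, gain and the interaction, with the 3 enzymes as vertical lines. The enzymes lie in the body of each distribution, with SOD2 at 0.14 for gain and SOD1 at -0.18 for the interaction the farthest from 0.

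The 95% intervals for supplementation reached from 0.868 at the lowest, for SOD2, to 1.06 at the highest, for SOD1, as a ratio of VTM to NoVTM. In other contrasts they reached further from 1. The highest ends were those of SOD2, at 1.27 in NoVTM_MG against NoVTM_LG, 1.21 in VTM_MG against VTM_LG and 1.20 for gain. The lowest ends were 0.764 for the SOD1 interaction and 0.762 for SOD2 in VTM_LG against NoVTM_MG. For supplementation, standard errors were wider than that of CAT in 97.5% of tested genes, wider than that of SOD1 in 86.3% and wider than that of SOD2 in 72.1%. The median log2 fold change over all tested genes was -0.0008 for supplementation and -0.0012 for gain, and the median absolute log2 fold changes were 0.05 and 0.07.

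**Figure D4:**
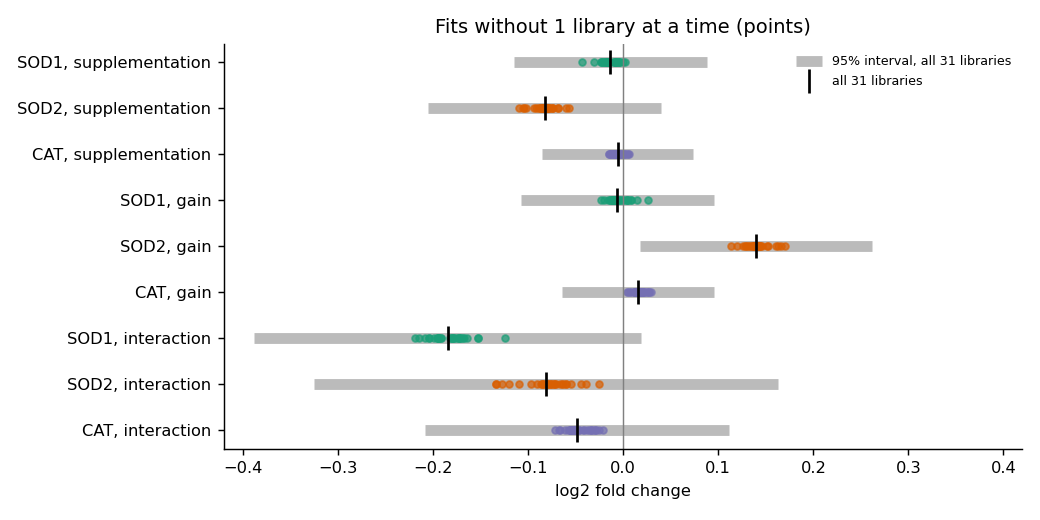
Log2 fold changes (x axis) of each enzyme for supplementation, gain and the interaction (y axis) with 1 of the 31 libraries left out at a time (points), beside the value (black tick) and 95% interval (grey bar) from all 31. Every point lies inside its interval, and the SOD1 interaction moves nearest to 0, at -0.12, without VTM_LG replicate 4.

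Among fetuses of a group, CAT was the steadiest of the 3 enzymes. Its log2 CPM varied by an SD of 0.09 around the group means, and 98.2% of tested genes varied more. The SD was 0.13 for SOD1, with 85.7% of genes varying more, and 0.17 for SOD2, with 69.6% varying more, against a median of 0.22 over all tested genes. Since low counts add noise, each gene was also set against genes of similar CPM, up to 250 on either side in the order of mean CPM. There 94.1% of 370 genes varied more than CAT and 72.9% of 501 varied more than SOD1, but only 36.9% of 501 varied more than SOD2. The steadiest group was NoVTM_MG for CAT, with a coefficient of variation of 3.40%, against 8.53% in VTM_LG, the highest for CAT. For SOD1 the coefficient of variation was 13.1% in VTM_LG and 7.59% to 8.48% in the other groups, and without VTM_LG replicates 4 and 7 it was 7.49% in VTM_LG. For SOD2 it ran from 9.99% in VTM_LG to 14.6% in VTM_MG.

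The 3 transcripts varied together only in part from fetus to fetus. Pearson's r of log2 CPM over the 31 libraries was 0.33 for SOD1 with SOD2 (permutation p = 0.0732, adjusted over 3 pairs 0.0732), and Spearman's rho was 0.48 (permutation p = 0.00692, adjusted 0.0208). For SOD1 with CAT, r was 0.39 (permutation p = 0.0288, adjusted 0.0432) and rho 0.39 (permutation p = 0.0300, adjusted 0.0450). For SOD2 with CAT, r was 0.42 (permutation p = 0.0197, adjusted 0.0432) and rho 0.32 (permutation p = 0.0789, adjusted 0.0789). With values centred on the group means, r was 0.33, 0.37 and 0.40 in the same order of pairs, with adjusted permutation p-values of 0.0707, 0.0588 and 0.0588. Spearman's rho of the centred values was 0.39, 0.29 and 0.40, with adjusted permutation p-values of 0.0493, 0.112 and 0.0493, so which pairs passed depended on the measure. These p-values test r and rho against 0 and do not set the pairs apart from other genes. By centred r over all 31 libraries, SOD2 held place 2887 and CAT place 2512 of 13178 genes in likeness to SOD1. CAT held place 1559 in likeness to SOD2. These places were not computed without the libraries that stood apart.

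The weaker r of SOD1 with SOD2 rested on the libraries that stood apart. Without VTM_LG replicates 4 and 7, r was 0.62 (permutation p = 0.00031, adjusted 0.00093, n = 29) and rho 0.67 (permutation p = 0.00011, adjusted 0.00033). Without the libraries farthest from the median of SOD1, which were VTM_LG replicate 4 and NoVTM_MG replicate 2, r was 0.48 (permutation p = 0.00932, adjusted 0.0280). For the other pairs, without VTM_LG replicates 4 and 7, r was 0.46 for SOD1 with CAT (adjusted permutation p = 0.0188) and 0.42 for SOD2 with CAT (adjusted permutation p = 0.0239), and rho was 0.42 (adjusted permutation p = 0.0372) and 0.33 (adjusted permutation p = 0.0826). Without the libraries farthest from the median on the first gene of the pair, r was 0.37 for SOD1 with CAT (adjusted permutation p = 0.0475) and 0.38 for SOD2 with CAT (adjusted permutation p = 0.0475). There rho was 0.40 for SOD1 with CAT (adjusted permutation p = 0.0496) and 0.28 for SOD2 with CAT (adjusted permutation p = 0.137), so SOD2 with CAT passed by r and not by rho. All values of a library share its TMM scaling factor, which can move genes together.

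**Figure D5:**
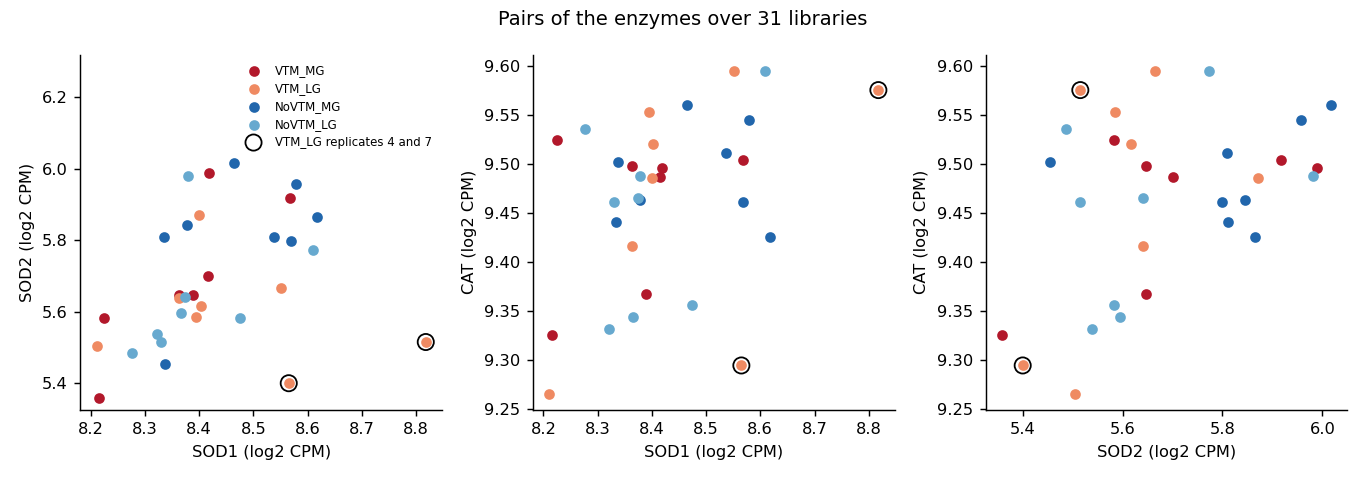
Log2 CPM of each pair of enzymes over 31 libraries, coloured by group, with VTM_LG replicates 4 and 7 ringed. In the left panel (SOD1 on the x axis, SOD2 on the y axis) the ringed libraries lie to the lower right of the others, and r is 0.33 with them and 0.62 without them.

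The same libraries stood out in the reads of SOD2 per read of SOD1, a ratio used here only to compare libraries, as it is not corrected for transcript length. It was 0.101 in VTM_LG replicate 4 and 0.111 in VTM_LG replicate 7, the lowest of the 31 libraries, while the other libraries lay between 0.134 and 0.189. Reads of CAT per read of SOD1 were also lowest there, at 1.66 in VTM_LG replicate 7 and 1.69 in VTM_LG replicate 4, against 1.75 to 2.46 in the other libraries. In VTM_LG replicate 4, SOD1 was the highest of all 31 libraries, at 451 CPM, while SOD2 was 45.6 CPM. In VTM_LG replicate 7, SOD1 held only place 7 of 31 from the highest, at 379 CPM. There SOD2, at 42.1 CPM, and CAT, at 628 CPM, each held place 30, so low SOD2 and low CAT also went into its ratios. Over groups, the reads of SOD2 per read of SOD1 averaged 0.156 ± 0.0147 in VTM_MG, 0.139 ± 0.0232 in VTM_LG, 0.159 ± 0.0164 in NoVTM_MG and 0.149 ± 0.0170 in NoVTM_LG (SD, n = 7, 8, 8 and 8). Without replicates 4 and 7 the mean of VTM_LG was 0.150 ± 0.0131 (SD, n = 6).

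Among the 29 libraries that did not stand apart, the enzymes also followed the first principal component, which carried 14.1% of the variance. This relation was computed after the data were seen. Pearson's r was 0.68 for SOD1 (permutation p = 4e-05, adjusted over 3 genes 0.00012), 0.47 for SOD2 (permutation p = 0.0110, adjusted 0.0110) and 0.63 for CAT (permutation p = 0.0003, adjusted 0.00045). Spearman's rho was 0.71, 0.44 and 0.56 (adjusted permutation p 9e-05, 0.0181 and 0.00292). Without VTM_LG replicate 8 and NoVTM_MG replicate 3, the farthest of the 29 from the median, r was 0.63, 0.51 and 0.54 (adjusted permutation p 0.00147, 0.00691 and 0.0053). With VTM_LG replicates 4 and 7 included, a setting added after seeing the data, the relation held for SOD1 (r = 0.75, rho = 0.75, adjusted permutation p = 3e-05 for both). It did not hold for SOD2 (r = -0.09, adjusted permutation p = 0.647; rho = 0.23, adjusted permutation p = 0.205). For CAT it passed by rho at 0.47 (adjusted permutation p = 0.0122) and not by r at 0.25 (adjusted permutation p = 0.246). The component was built from all tested genes, these 3 included, and the TMM factor of a library scales all its values. How many other genes reach such an r was not computed. The p-values test r against 0 and do not set these enzymes apart from other genes.

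The genes whose levels moved most like those of each enzyme were also picked out. The highest r among so many genes exceeds the r between enzymes named beforehand almost by construction. Nothing is therefore concluded from that difference. Likeness was measured as Pearson's r of log2 CPM centred on group means, over 31 libraries, among 13178 other genes with a mean of at least 1 CPM, and is given as a description. The genes most like SOD1 were ENSBTAG00000017633 (r = 0.92), ENSBTAG00000031641 (r = 0.91) and ENSBTAG00000009508 (r = 0.90). Without VTM_LG replicates 4 and 7 these were 0.88, 0.88 and 0.86. For SOD2 they were ENSBTAG00000013315 (r = 0.82), ENSBTAG00000006693 (r = 0.81) and ENSBTAG00000000807 (r = 0.78). For CAT they were ENSBTAG00000008184 (r = 0.84), ENSBTAG00000001107 (r = 0.84) and ENSBTAG00000015663 (r = 0.83).

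The 3 gene sets share no identifier, and sets of 3 from 13178 genes rarely would by chance. None of these 9 genes passed for supplementation or gain in edgeR, with adjusted p-values of at least 0.722. Over all 14228 tested genes, edgeR called 0 (0%) for supplementation and 3 (0.0211%) for gain, so no call among 9 is near that share. With all libraries included, 22.1% of the 13178 genes had an absolute r over 0.5 with SOD1, against 11.9% for SOD2 and 4.49% for CAT. Among all genes ordered by r from the highest, CAT held place 2512 and SOD2 place 2887 in likeness to SOD1. CAT held place 1559 in likeness to SOD2. Neither the shares nor the places were computed without the libraries that stood apart. The r of SOD1 with SOD2 was higher without those libraries, as given above. How far the shares and places rest on them was not tested.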

How the data were processed

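The authors deposited raw counts per gene, not normalized, for 31 libraries, and each column was matched to a sample by title. Strand-specific libraries were read in pairs, per the labels' protocols. The submitters' processing notes name CASAVA, FastQC 0.11.8, MultiQC 1.9, STAR 2.7.3a and edgeR, with no roles. The sources used here do not give the genome build, annotation, counting program or strand setting, so reads from similar copies or antisense genes could not be told apart.

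All 31 libraries were fitted with edgeR 4.0.16 in R 4.3.3, with 1 mean per group, TMM scaling and filterByExpr (minimum count 10, minimum total 15). The quasi-likelihood test was adjusted by the Benjamini-Hochberg method over all 14228 genes, with a threshold of 0.05. Intervals (95%) come from the fitted log2 fold change, its F statistic and degrees of freedom. Log2 CPM used a prior count of 2. Correlations used 100000 two-sided permutations (SciPy 1.17.1). Alternatives included DESeq2 1.42.0 and limma 3.58.1, the latter as voom with estimated library quality weights. The fitting procedure was also run on simulated counts that held no libraries standing apart. Its outcome is not given here and is not used as support for the values above.

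The named genes are the 3 enzymes and, for each, the 3 genes most like it. The members and lists were chosen with earlier results of these data known. Lists of selenium, glutathione, metal-handling and cell type genes could not be run, as 0 identifiers matched a symbol. Replicate numbers follow sample order and pair nothing. No batch is given per sample. Each fetus came from its own heifer, so the p-values reflect the spread between animals.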

Additional observations from a re-analysis of the deposited data

Results flagged for a closer look

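SOD2 in NoVTM_MG replicate 6 stood far below the rest of its group, at 43.7 CPM, with the nearest library at 55.5 CPM. The gap was 0.565 of the group's range, above Dixon's 95% critical value of 0.526 for 8 samples. The same library had 16.6 reads of CAT per read of SOD2, far above the nearest library of NoVTM_MG at 13.04 (gap 0.723 of the range). NoVTM_LG replicate 4 had 0.189 reads of SOD2 per read of SOD1, far above the nearest library of NoVTM_LG at 0.150 (gap 0.715 of the range). Of 12 combinations of group and gene examined in CPM, 1 was marked, and chance marks about 1 in 20. The ratios restate the same genes, so the CAT ratio of NoVTM_MG replicate 6 is no separate sign. Without NoVTM_MG replicate 6, the log2 fold change of SOD2 in VTM_LG against NoVTM_MG was -0.27, with an unadjusted p of 0.00207 and an adjusted p of 0.278 in edgeR, the lowest adjusted p of any enzyme in any setting. Leaving out the library with the lowest SOD2 of NoVTM_MG raises the mean of that group. A larger difference therefore follows from the choice of library.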

How the results depend on the processing

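None of the 27 values (3 enzymes in 9 contrasts) passed in edgeR, and none of 1086 refits under other settings or without libraries passed. 16 of the 27 kept their direction throughout, SOD2 for supplementation and for gain among them. The other 11 turned in at least 1 refit. With total counts only, supplementation was 0.0034 for SOD1 and 0.013 for CAT, and SOD1 was 0.0089 in VTM_LG against NoVTM_MG. With limma voom, CAT was 0.015 for supplementation and 0.0058 in VTM_LG against NoVTM_MG, SOD1 was 0.031 for gain and 0.0019 in VTM_MG against NoVTM_LG, and SOD2 was 0.020 in VTM_LG against NoVTM_LG. Without VTM_LG replicates 4 and 7, SOD1 was 0.035 for gain and -0.0043 in VTM_LG against NoVTM_LG, where SOD2 was 0.0038. In VTM_LG against NoVTM_MG, SOD1 kept its direction without them but moved from -0.0075 to -0.090 (unadjusted p = 0.164 in edgeR). When the first principal component was added to the model, a setting chosen after seeing the data, SOD1 was 0.060 for gain.

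Leaving out single libraries gave ranges of -0.044 to 0.0019 (SOD1) and -0.015 to 0.0058 (CAT) for supplementation, and -0.024 to 0.026 (SOD1) for gain. In VTM_LG against NoVTM_LG they were -0.084 to 0.010 (SOD2) and -0.00064 to 0.042 (CAT). In VTM_LG against NoVTM_MG they were -0.070 to 0.020 (SOD1) and -0.042 to 0.00195 (CAT). In VTM_MG against NoVTM_LG they were -0.055 to 0.016 (SOD1) and -0.0063 to 0.034 (CAT), and in VTM_MG against VTM_LG -0.032 to 0.017 (CAT).

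Over all genes, edgeR called 3 for gain and 0 in the other contrasts. DESeq2 called 3 for supplementation, 9 for gain, 9 in NoVTM_MG against NoVTM_LG, 6 in VTM_LG against NoVTM_MG, and 1 each in VTM_MG against VTM_LG and VTM_MG against NoVTM_LG. Limma voom called 2 for supplementation, 5 for gain and 2 in NoVTM_MG against NoVTM_LG. The robust edgeR fit called 2 in NoVTM_MG against NoVTM_LG, and total counts only called 1 for gain. Without VTM_LG replicates 4 and 7, 1 gene was called for supplementation, 1 in NoVTM_MG against NoVTM_LG and 1 in VTM_LG against NoVTM_MG. Leaving out single libraries gave 0 to 3 calls for supplementation, 0 to 7 for gain, 0 to 7 in NoVTM_MG against NoVTM_LG, 0 to 2 in VTM_LG against NoVTM_MG and 0 to 23 in VTM_MG against VTM_LG, the 23 without VTM_LG replicate 8. The cause of these moves was not tested.

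For the correlations, centring on group means left r at 0.37 for SOD1 with CAT and 0.40 for SOD2 with CAT, no longer past the threshold, although centred rho passed at 0.39 for SOD1 with SOD2 and 0.40 for SOD2 with CAT (adjusted permutation p = 0.0493 for both) and not at 0.29 for SOD1 with CAT (adjusted permutation p = 0.112), while r of SOD1 with SOD2 passed at 0.62 without VTM_LG replicates 4 and 7 and at 0.48 without the libraries farthest on SOD1. With all 31 libraries, r with the first principal component was -0.0901 for SOD2 and 0.255 for CAT. No paired analysis was run, since each fetus came from its own heifer and the replicate numbers pair nothing. Counting error is small at these depths, so the spread between fetuses sets the precision.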
